A study of Mus musculus with 6 samples.

Results

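The 10 genes described here encode proteins that bind insulin-like growth factors (*Igfbp2* to *Igfbp7*), the receptors *Igf1r* and *Insr*, and the receptor substrates *Irs1* and *Irs2*. They are 10 of the 24982 genes listed for each library and were taken by symbol. The group was chosen on measured values of these same 6 libraries, because *Igfbp7* was lost in DKSFM cells. For these 10 genes the difference between the lines is therefore given as a description, without a test.

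RNA-seq was performed on untreated keratinocyte lines from neonatal skin of C57BL/6 mice. The KSFM-Ca2+ cells (3 libraries) were derived and kept in a serum-free keratinocyte medium low in calcium, and the DKSFM cells (3 libraries) were descendants of KSFM-Ca2+ cells that had adapted to a defined serum-free medium with more calcium. The medium, its calcium and the adaptation cannot be told apart in this design. It is not stated in the sources used here whether replicates were separate cultures, so that p-values measure only the spread between these samples, which may be technical. The files of KSFM-Ca2+ replicate 3 and of every DKSFM replicate carry the word "combined" in their names, which is not explained in the sources used here.

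Expression is given as coverage, the mean number of reads over each base of a gene, which the authors listed to 1 decimal and did not scale to library size. Total coverage over all genes was 1601676, 1238411 and 1057750 in KSFM-Ca2+ replicates 1 to 3, and 1174348, 1239438 and 1170675 in DKSFM replicates 1 to 3. KSFM-Ca2+ replicate 1 was the deepest, and the number by which its values were divided, 1.31, was the largest. Means are given as such normalised coverage, the listed value divided by the scaling number of its library. Coverage is a value per base, so levels of different genes are set beside each other here. How it was computed for each gene is not given in the sources used here, so orders, shares and ratios between genes are approximate. Reads per gene were not used here, and the step of 0.1 limits the precision of low values.

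Insulin-like growth factors and insulin signal through the tyrosine kinase receptors encoded by *Igf1r* and *Insr*. The activated receptors phosphorylate the docking proteins IRS1 and IRS2, which recruit phosphatidylinositol 3-kinase and so activate AKT. Secreted binding proteins hold the growth factors in the extracellular space, lengthen their life and limit or deliver them to the receptor, while proteases that cut the binding proteins set the growth factors free. In skin this pathway is known for its part in keratinocyte growth, and cultured keratinocytes are commonly grown with insulin or insulin-like growth factors in the medium.

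The label of the cells as keratinocytes was checked against markers. All 9 keratinocyte markers were above a normalised coverage of 1, and their sum was 20707, 21049 and 20649 in the KSFM-Ca2+ libraries and 49968, 46232 and 50432 in the DKSFM libraries. *Krt14*, a keratin gene of basal keratinocytes, was the most abundant of them. The markers did not all differ alike. *Krt5*, *Krt14*, *Krt15* and *Perp* were called higher in DKSFM cells by the thresholds used for all genes. *Trp63*, *Itga6* and *Col17a1* were less than 2-fold higher there. *Itgb4* was lower, at 321 ± 6.24 in KSFM-Ca2+ and 192 ± 8.57 in DKSFM cells (SD, n = 3 each), and *Dsg3* overlapped between the lines. Of 44 markers of 7 other cell types, 36 stayed at or under a normalised coverage of 1 in every library. The 8 others were *Pdgfra*, *Twist2*, *Mitf*, *Pecam1*, *Cd74*, *Isl1*, *Acta1* and *Fabp4*.

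Of the ligands, only *Igf2* passed the filter on low coverage. *Igf2* encodes an imprinted growth factor of fetal tissue and lies at chr7:142650768-142666816. Its listed coverage was 2.7, 2.7 and 2.3 in the KSFM-Ca2+ libraries and 36.2, 37.8 and 40.5 in the DKSFM libraries. All DKSFM libraries were far above all KSFM-Ca2+ libraries. Normalised coverage was 2.48 ± 0.367 (SD, n = 3) in KSFM-Ca2+ and 39.7 ± 2.81 (SD, n = 3) in DKSFM cells, a 16-fold difference. The log2 fold change was 3.96 ± 0.11 (SE) with an adjusted p of 2.04e-08 in limma. *Igf1*, the other insulin-like growth factor, was listed at 0.3 at most, and the insulin genes *Ins1* and *Ins2* were listed at 0 in all 6 libraries.

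Among the binding proteins, *Igfbp7* and *Igfbp2* exchanged places. *Igfbp7* encodes a secreted protein that binds insulin-like growth factors weakly, and it lies on the minus strand at chr5:77349240-77408045. Its listed coverage was 1247, 986.3 and 858.6 in the KSFM-Ca2+ libraries and 0.5, 0.3 and 0.3 in the DKSFM libraries. Every KSFM-Ca2+ library was thus near the top of the range of expressed genes and every DKSFM library near the rounding step. Normalised coverage was 979.6 ± 31.6 (SD, n = 3) in KSFM-Ca2+ and 0.383 ± 0.128 (SD, n = 3) in DKSFM cells, which is 2558-fold lower. The log2 fold change was -11.02 ± 0.16 (SE), the lowest of the 12409 genes that passed the filter. For a transcript of this length the step of 0.1 is worth about 1.36 reads, so the level in DKSFM cells rests on a few reads in each library. *Igfbp7* was above 98.5% of tested genes in KSFM-Ca2+ and above 2.48% of them in DKSFM cells.

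*Igfbp2* encodes a secreted binding protein with a preference for IGF2, and it lies on the plus strand at chr1:72824480-72852474. Its listed coverage was 21.1, 15.4 and 10.7 in the KSFM-Ca2+ libraries and 8494.6, 8210.9 and 8464.5 in the DKSFM libraries. The lines did not overlap, and the KSFM-Ca2+ values were moderate rather than near 0. Normalised coverage was 14.6 ± 1.80 (SD, n = 3) in KSFM-Ca2+ and 8732 ± 457 (SD, n = 3) in DKSFM cells, a 596-fold difference with a log2 fold change of 9.22 ± 0.08 (SE). In DKSFM cells only 4 tested genes had a higher mean, whereas in KSFM-Ca2+ cells *Igfbp2* was above 38.6% of tested genes. Counted from the highest log2 fold change down, it was number 15 of all tested genes.

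**Figure D1:**
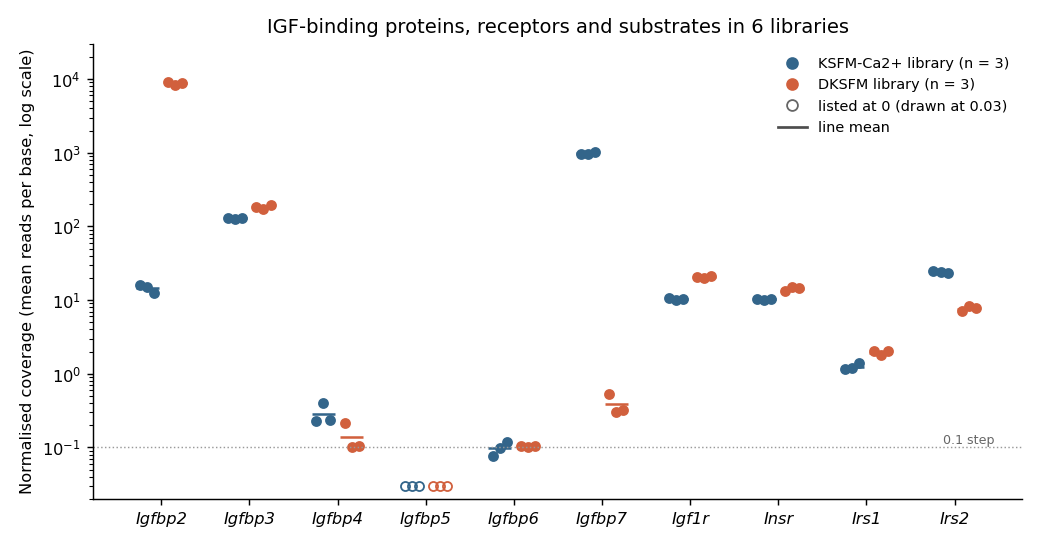
Normalised coverage (mean reads per base, log axis) of the 10 genes in each of 3 KSFM-Ca2+ and 3 DKSFM libraries, with horizontal lines at the means of each line and open circles for values listed at 0. *Igfbp7* stands at 979.6 and 0.383 and *Igfbp2* stands at 14.6 and 8732, while *Igfbp3*, the receptors and the substrates differ far less.

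The sequence before the start of *Igfbp7* and *Igfbp2* is shown because these genes had the largest differences of the 10, in opposite directions. Both are RefSeq windows of 250 bases that end at the base before the start, from build GRCm38.p6, written 5′ to 3′ on the strand of the gene. The *Igfbp7* window is chr5:77408046-77408295 on the minus strand and the *Igfbp2* window is chr1:72824230-72824479 on the plus strand. Capitals mark the GC box GGGCGG on either strand.
Igfbp7: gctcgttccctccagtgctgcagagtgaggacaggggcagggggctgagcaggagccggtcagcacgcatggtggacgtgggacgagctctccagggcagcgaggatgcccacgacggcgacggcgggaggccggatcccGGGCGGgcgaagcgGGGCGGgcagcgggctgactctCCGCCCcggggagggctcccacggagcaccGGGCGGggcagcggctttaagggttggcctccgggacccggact
Igfbp2: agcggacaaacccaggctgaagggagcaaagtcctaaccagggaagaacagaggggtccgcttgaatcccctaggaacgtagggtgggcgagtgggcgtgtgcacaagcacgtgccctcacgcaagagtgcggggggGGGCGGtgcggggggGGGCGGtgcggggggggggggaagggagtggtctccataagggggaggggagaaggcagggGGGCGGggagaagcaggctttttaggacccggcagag

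The *Igfbp7* window held 4 GC boxes and the *Igfbp2* window 3. The letters GGGCGG were found in 32.7% of all 32851 windows of this length, searched on both strands. GC content was 74.0% with 26 CpG pairs for *Igfbp7*, and 67.2% with 14 CpG pairs for *Igfbp2*. The letters CACGTG, an E-box, occurred once before *Igfbp2* and in 6.02% of all windows. Neither of the printed windows held TATAAA (12.4% of all windows) or TGANTCA, the AP-1 letters (6.75%). RefSeq lists another start of *Igfbp2*, whose window at chr1:72825137-72825386 held no GC box and 1 match to TGANTCA. Windows were found for 9 of the 10 genes, and 5 of their 10 windows held a GC box. These matches are descriptions of letters and not of sites in use.

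*Igfbp3*, which encodes the main IGF carrier of serum, was well expressed in both lines. Its listed coverage was 173.1, 127.9 and 109.6 in the KSFM-Ca2+ libraries and 173.2, 173 and 183.1 in the DKSFM libraries. The listed values of KSFM-Ca2+ replicate 1 and of DKSFM replicates 1 and 2 were nearly equal, but after scaling the lines did not overlap. Normalised coverage was 129 ± 2.73 and 184 ± 10.6 (SD, n = 3 each), 1.42-fold higher in DKSFM cells, and the log2 fold change was 0.50 ± 0.04 (SE). *Igfbp3* was the binding protein with the smallest difference among those that passed the filter.

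The remaining 3 binding proteins did not pass the filter, which asked for a normalised coverage of 0.5 or more in 3 or more libraries. *Igfbp4*, whose product mostly inhibits IGF action, was listed at 0.2 to 0.4 in KSFM-Ca2+ and at 0.1 to 0.2 in DKSFM libraries. *Igfbp6*, whose product prefers IGF2, was listed at 0.1 in all 6. *Igfbp5* was listed at 0 in all 6, although it lies 5590 bases past the end of *Igfbp2*, on the opposite strand. After scaling, the lines did not overlap for *Igfbp4*, at 0.229 to 0.396 in KSFM-Ca2+ and 0.0999 to 0.212 in DKSFM libraries, but the listed value of 0.2 occurred in both. The precision is low for these 3 genes, which were listed at 0 or at a few steps of 0.1. At the median length of their protein-coding transcripts, a step is worth about 0.873 reads for *Igfbp4*, 1.31 for *Igfbp6* and 7.07 for *Igfbp5*. *Igfbp1*, which adjoins *Igfbp3*, was listed at 0 everywhere, as was *Igfbpl1*.

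The summed normalised coverage of *Igfbp2* to *Igfbp7* was 1124 ± 28.9 (SD, n = 3) in KSFM-Ca2+ and 8916 ± 466 (SD, n = 3) in DKSFM cells, 7.93-fold higher in the latter. *Igfbp7* made up 86.5%, 87.3% and 87.7% of the sum in the KSFM-Ca2+ libraries, and *Igfbp2* made up 98.0%, 97.9% and 97.9% in the DKSFM libraries. Each line thus had 1 dominant binding protein transcript, and it was a different gene in each. The share of *Igfbp3* was 11.5% ± 0.439 in KSFM-Ca2+ and 2.06% ± 0.0597 in DKSFM cells (SD, n = 3 each), although its own level was higher in DKSFM cells. *Igfbp2* in KSFM-Ca2+ cells held 1.31% ± 0.192 (SD, n = 3).

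**Figure D2:**
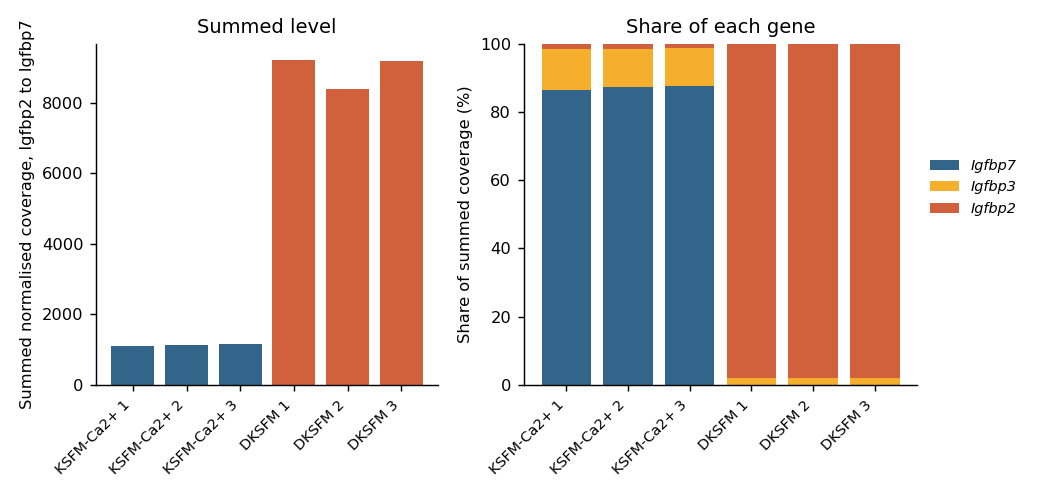
Summed normalised coverage of *Igfbp2* to *Igfbp7* in each library (left; bars are single libraries) and the share of each gene in that sum in percent (right). The sum averages 1124 in KSFM-Ca2+ and 8916 in DKSFM libraries, with *Igfbp7* as the main part in the former and *Igfbp2* in the latter.

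In these bulk samples, fewer cells of a type and less RNA per cell cannot be told apart. *Igfbp7* is known from fibroblasts and endothelial cells, so the lists of their markers are given beside it. Of 9 dermal fibroblast markers, *Col1a1*, *Col1a2*, *Col3a1*, *Pdgfrb*, *Dcn*, *Lum* and *Thy1* were listed at 0 in all 6 libraries. The summed normalised coverage of the list was 8.76, 8.21 and 8.38 in the KSFM-Ca2+ libraries and 2.44, 2.1 and 2.23 in the DKSFM libraries, with *Twist2* as the most abundant gene in the former and *Pdgfra* in the latter. These were the only genes of the list above 0, and they differed in opposite directions: *Twist2* was at 7.34 ± 0.272 in KSFM-Ca2+ and 0.0354 ± 0.0613 in DKSFM cells, and *Pdgfra* at 1.11 ± 0.206 and 2.22 ± 0.119 (SD, n = 3 each). The limma adjusted p was 4.34e-07 for *Twist2* and 7.32e-04 for *Pdgfra*, which stayed under the 2-fold limit on the log2 scale. Of 7 endothelial markers, *Cdh5*, *Tie1*, *Emcn* and *Cldn5* were listed at 0 in all 6 libraries. Their list summed to 2.82, 3.16 and 3.30 in the KSFM-Ca2+ libraries and to 8.28, 8.29 and 7.42 in the DKSFM libraries, with *Pecam1* as the most abundant gene. The other endothelial markers, *Kdr* and *Tek*, were listed at 0.2 and 0.4 at most.

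The sums of the melanocyte and adipocyte lists rested mainly on a single gene each. The 7 melanocyte markers summed to 3.96 to 4.60 in KSFM-Ca2+ and 17.3 to 18.8 in DKSFM libraries, led by *Mitf*, while *Tyr* and *Dct* were listed at 0 in all 6 and no other gene of the list was above 0.7. The 5 adipocyte markers summed to 5.07 to 8.15 and to 0.106 to 1.10, led by *Fabp4*, and *Plin1*, *Cidec* and *Lep* were at 0. The 7 Langerhans and immune markers summed to 1.30 to 2.01 and to 0.106 to 0.30, led in KSFM-Ca2+ cells by *Cd74*, which was listed at 0 in DKSFM libraries, and *Cd3e* was at 0 in all 6. The 4 Merkel cell markers, led by *Isl1* with *Atoh1* and *Piezo2* at 0, and the 5 skeletal muscle markers, led by *Acta1* and *Des* with *Myod1* and *Myh3* at 0, summed to 2.01 or less in every library, and the lines overlapped in both sums. Whether these lists had a part in the levels of the 10 genes was not tested.

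The tested genes on both sides of *Igfbp7* and *Igfbp2* are given next. *Polr2b*, which encodes a subunit of RNA polymerase II, shares 89 bases with the lower end of the *Igfbp7* region, on the opposite strand. Its normalised coverage was 66.7 ± 2.27 in KSFM-Ca2+ and 68.9 ± 1.11 in DKSFM cells (SD, n = 3 each), with an adjusted p of 0.244 in limma. On the other side the nearest tested gene, *Adgrl3*, encodes an adhesion receptor and starts 3611 kb away, and it was at 0.253 ± 0.135 and 1.84 ± 0.316 (SD, n = 3 each, limma adjusted p = 1.46e-04). None of the 17 other tested genes within 2 Mb of *Igfbp7* had a log2 fold change below -0.79. Beside *Igfbp2*, the ribosomal protein gene *Rpl37a* was at 701 and 779 and the adhesion protein gene *Tns1* at 32.6 and 30.02 in KSFM-Ca2+ and DKSFM cells, and neither reached 2-fold.

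**Figure D3:**
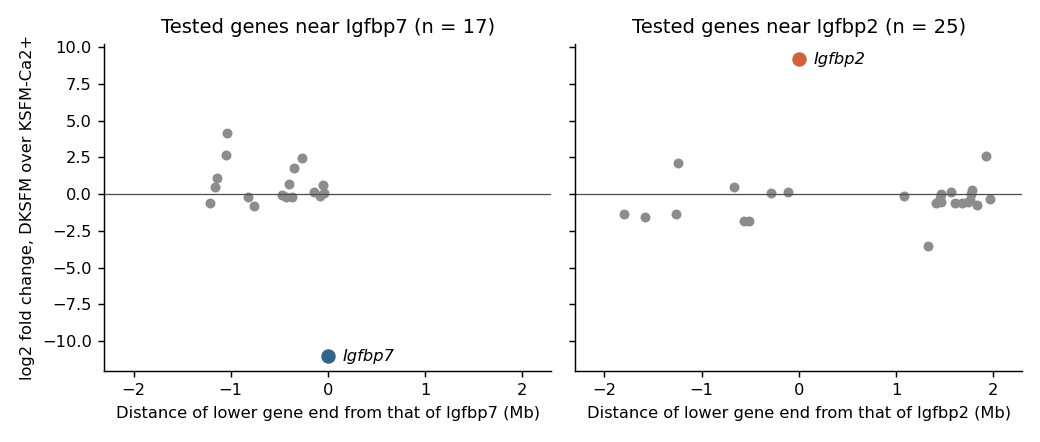
Log2 fold change (DKSFM over KSFM-Ca2+) of each tested gene within 2 Mb of *Igfbp7* (left) and *Igfbp2* (right), by distance in Mb between the lower ends of the genes; each point is 1 gene. The 17 neighbours of *Igfbp7* lie between -0.79 and 4.13 and the 25 of *Igfbp2* between -3.52 and 2.62, away from *Igfbp7* at -11.02 and *Igfbp2* at 9.22.

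Over a window of 10 Mb to each side, the tested genes had a median log2 fold change, less that of all genes, of 0.17 around *Igfbp7* (53 genes) and -0.27 around *Igfbp2* (83 genes). It was 0.34 around *Igf1r*, -0.35 around *Irs1*, and -0.25 around both *Insr* and *Irs2*. The same median was 0.08 over chromosome 5, 0.20 over chromosome 7, -0.42 over chromosome 1 and -0.43 over chromosome 8, which carry these genes. Whether the number of copies of a chromosome had a part in these medians was not tested.

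The 3 tested genes nearest to *Igfbp7* over the 6 libraries, by Euclidean distance of log2(normalised coverage + 0.1), were *Prl8a9*, *Ccl2* and *Csf3*, at distances of 4.16, 4.37 and 4.73. *Prl8a9* belongs to the prolactin family, *Ccl2* encodes a chemokine for monocytes and *Csf3* encodes the granulocyte colony-stimulating factor. *Prl8a9* was listed at 434.6, 390.8 and 293.7 in KSFM-Ca2+ and at 1.8, 1.6 and 1.4 in DKSFM libraries. *Csf3* had listed values of 201, 164.5 and 146.8 in KSFM-Ca2+ and of 0.2, 0.2 and 0.1 in DKSFM cells. Like *Igfbp7* they were high in every KSFM-Ca2+ library and low in every DKSFM library. Since they were picked for their nearness to *Igfbp7* in these same values, this likeness follows from the choice, and nothing is read from it.

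Proteases that cut binding proteins, and inhibitors of these proteases, were next. Of 9 such genes 5 were tested, and 1 rose and 2 fell in DKSFM cells by the thresholds used for all genes. Of all tested genes 13.2% rose and 10.5% fell, and with 5 genes the shares cannot be set against these closely. *Pappa*, which encodes a metalloproteinase that cuts IGFBP4 and IGFBP5, was listed at 0 in all KSFM-Ca2+ libraries, and its listed values were 0.7, 0.8 and 0.6 in DKSFM cells. Its log2 fold change of 3.04 ± 0.29 (SE, adjusted p = 2.01e-05) depends on the pseudocount and was 0.79 with a pseudocount of 1, under the 2-fold limit. *Stc2*, which encodes an inhibitor of that protease, was listed at 13.7, 12 and 8.7 in KSFM-Ca2+ and at 0.6, 0.8 and 0.6 in DKSFM libraries. It was 15.7-fold lower in DKSFM cells, with a log2 fold change of -3.80 ± 0.13 (SE, adjusted p = 4.48e-08).

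*Adam12*, which encodes a disintegrin metalloproteinase that cuts IGFBP3 and IGFBP5, fell from 27.2 ± 2.57 to 7.15 ± 0.732 (SD, n = 3 each), with a limma adjusted p of 4.33e-07. The serine protease gene *Htra1* was the most abundant of this role, at 2665 ± 34.1 in KSFM-Ca2+ and 1819 ± 40.2 in DKSFM cells (SD, n = 3 each). Its log2 fold change of -0.55 ± 0.03 (SE, adjusted p = 4.27e-07) stayed under the 2-fold limit. *Pappa2* and *Stc1* were listed at 0 in all 6 libraries.

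Of 9 relatives that carry the IGFBP domain, 5 were tested and 1 was called, which rose, beside 13.2% of all tested genes. *Wisp1*, a target of Wnt signalling, was listed at 0.1, 0.1 and 0 in KSFM-Ca2+ and at 13.8, 15 and 13.2 in DKSFM libraries, with an adjusted p of 1.01e-07 in limma. *Ctgf*, which encodes a matricellular growth factor modulator, was the most abundant uncalled relative, at 186 ± 23.7 and 103 ± 2.92 (SD, n = 3 each). With a log2 fold change of -0.85 ± 0.08 (SE, adjusted p = 1.89e-05) it missed the 2-fold limit. *Nov*, *Wisp3* and *Esm1* were listed at 0 in all 6 libraries.

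Both receptors of the 10 genes were expressed in both lines. *Igf1r*, the receptor gene for IGF1 and IGF2, lies at chr7:67952257-68233668. It was listed at 14, 10.2 and 8.9 in KSFM-Ca2+ and at 19.6, 20 and 20.2 in DKSFM libraries. All DKSFM libraries were above all KSFM-Ca2+ libraries, and normalised coverage was 10.4 ± 0.30 and 20.7 ± 0.717 (SD, n = 3 each). The difference was 1.99-fold, just under the limit of 2, with a log2 fold change of 0.99 ± 0.05 (SE). Without KSFM-Ca2+ replicate 1 it was 1.003 and without DKSFM replicate 2 it was 1.02, both just past that limit.

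*Insr*, the insulin receptor gene at chr8:3150922-3279649, was listed at 13.7, 10.3 and 8.8 in KSFM-Ca2+ and at 12.4, 15 and 13.8 in DKSFM libraries. The listed values of the lines overlapped through the deep KSFM-Ca2+ replicate 1, and the scaled values did not. Normalised coverage was 10.3 ± 0.134 and 14.3 ± 0.967 (SD, n = 3 each), 1.38-fold higher in DKSFM cells, with a log2 fold change of 0.46 ± 0.07 (SE). The ratio of *Igf1r* to *Insr* was 1.01 ± 0.0161 in KSFM-Ca2+ and 1.46 ± 0.124 in DKSFM cells (SD, n = 3 each). The related receptor gene *Insrr* was listed at 0 in all 6 libraries.

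*Igf2r*, which encodes a receptor that clears IGF2 and carries lysosomal enzymes, was at 34.9 ± 0.385 in KSFM-Ca2+ and 26.9 ± 0.336 in DKSFM cells (SD, n = 3 each). Its log2 fold change of -0.38 ± 0.04 (SE) had a limma adjusted p of 2.57e-05 but did not reach 2-fold. The ratio of *Igf2r* to *Igf1r* was 3.35 ± 0.112 in KSFM-Ca2+ and 1.30 ± 0.0341 in DKSFM cells (SD, n = 3 each). The ratio of *Igfbp2* to *Igf2* was 6.06 ± 1.61 and 220.3 ± 13.1 (SD, n = 3 each).

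The receptor substrates differed in opposite directions. *Irs2* at chr8:10984681-11008929, which encodes a docking protein of both receptors, was listed at 32.4, 24.6 and 20 in KSFM-Ca2+ and at 6.6, 8.2 and 7.4 in DKSFM libraries. All DKSFM libraries were below all KSFM-Ca2+ libraries. Normalised coverage was 24.2 ± 0.558 and 7.68 ± 0.610 (SD, n = 3 each), 3.15-fold lower in DKSFM cells, with a log2 fold change of -1.65 ± 0.07 (SE).

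*Irs1* at chr1:82233105-82291439, the other widely expressed substrate gene, was listed at 1.5, 1.2 and 1.2 in KSFM-Ca2+ and at 1.9, 1.8 and 1.9 in DKSFM libraries. The lines did not overlap, but the gap was only 3 steps of 0.1 in the listed values. Normalised coverage was 1.25 ± 0.147 and 1.94 ± 0.125 (SD, n = 3 each), 1.56-fold higher in DKSFM cells, with a log2 fold change of 0.60 ± 0.14 (SE). There was more *Irs2* than *Irs1* in both lines, by a ratio of 19.6 ± 2.59 in KSFM-Ca2+ and 3.97 ± 0.545 in DKSFM cells (SD, n = 3 each). *Irs3* and *Irs4* were listed at 0 in all 6 libraries.

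By level, the order in KSFM-Ca2+ cells was *Igfbp7*, *Igfbp3*, *Irs2*, *Igfbp2*, *Igf1r*, *Insr*, *Irs1*, *Igfbp4*, *Igfbp6* and *Igfbp5*. *Igf1r* and *Insr* were the only neighbours in this order whose libraries overlapped. In DKSFM cells the order was *Igfbp2*, *Igfbp3*, *Igf1r*, *Insr*, *Irs2*, *Irs1*, *Igfbp7*, *Igfbp4*, *Igfbp6* and *Igfbp5*, and there only *Igfbp4* and *Igfbp6* overlapped. *Igfbp3*, *Igfbp4*, *Igfbp6* and *Igfbp5* were each in the same place in both lines.

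Of the 10 genes, 7 passed the filter, and *Igfbp7* did so only through the KSFM-Ca2+ libraries. By the thresholds used for all genes, an adjusted p under 0.01 and a fold change of at least 2, 1 of the 7 was higher in DKSFM cells and 2 were higher in KSFM-Ca2+ cells. Over all 12409 tested genes the shares were 13.2% and 10.5%. All 7 were without overlap between the lines, as were 83.3% of all tested genes. The log2 fold changes of the 7 genes had a median of 0.50, beside -0.00118 for all that were tested. Since the genes were chosen on this contrast, nothing is read from these counts.

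Other pathway genes were taken from a list of 65 genes in 8 roles, of which 46 passed the filter. In DKSFM cells 7 of them rose (15.2%) and 4 fell (8.70%), beside 13.2% and 10.5% of all tested genes. The shares were thus near those of all genes. For the 46 genes the log2 fold change had a median of -0.03, and its absolute value a median of 0.49, which was also that of all tested genes. In all, 30 (65.2%) had an adjusted p under 0.01, beside 72.6% of all tested genes, and 41 (89.1%) were without overlap between the lines, beside 83.3%.

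Docking and adaptor genes had 8 tested members. *Gab1*, which encodes a docking protein for receptor tyrosine kinases, rose from 16.6 ± 1.27 to 48.0 ± 2.16 (SD, n = 3 each), with a log2 fold change of 1.53 ± 0.07 (SE, limma adjusted p = 1.73e-07). *Grb14*, which encodes an inhibitory adaptor of the insulin receptor, was listed at 1.1, 0.8 and 0.5 in KSFM-Ca2+ and at 0, 0 and 0.1 in DKSFM libraries. Its log2 fold change was -2.71 ± 0.38 (SE, adjusted p = 2.09e-04) and was -0.75 with a pseudocount of 1, under the 2-fold limit. The adaptor gene *Grb2*, the most abundant that was not called by the mean over all 6 libraries, was at 172 ± 3.28 and 164 ± 8.17 (SD, n = 3 each, adjusted p = 0.115), while *Sh2b1* was above it in KSFM-Ca2+ cells at 194 ± 16.1 (SD, n = 3).

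In the module of phosphatidylinositol 3-kinase and AKT, 12 of 13 genes were tested, and 2 rose (16.7%, beside 13.2% of all tested genes). *Pik3r1*, which encodes the main regulatory subunit of the kinase, was listed at 14.4, 10.3 and 8.8 in KSFM-Ca2+ and at 78.3, 89.2 and 83 in DKSFM libraries. The lines were well apart. The difference was 8.25-fold, with a log2 fold change of 3.03 ± 0.05 (SE, adjusted p = 1.26e-09). *Pik3r3*, another regulatory subunit gene, rose from 5.25 ± 0.173 to 12.4 ± 0.708 (SD, n = 3 each, limma adjusted p = 1.07e-06).

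*Akt1*, which encodes a kinase that the pathway activates and was the most abundant gene of the module, was at 551 ± 12.1 and 407 ± 20.2 (SD, n = 3 each). Its log2 fold change of -0.44 ± 0.04 (SE) had a limma adjusted p of 1.42e-05 and stayed under 2-fold.

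Further downstream, all 14 genes of the mTOR complexes, FOXO factors and GSK3 kinases were tested and 1 was called, which rose (7.14%, beside 13.2% of all tested genes). *Foxo4*, which encodes a transcription factor that AKT keeps out of the nucleus, rose from 13.1 ± 1.63 to 31.4 ± 1.26 (SD, n = 3 each, limma adjusted p = 3.28e-06). *Eif4ebp1*, which encodes a translation repressor that mTOR inactivates, was the most abundant that was not called by the mean over all 6 libraries, at 349.8 ± 7.49 and 217 ± 9.84 (SD, n = 3 each), while *Rheb* was above it in DKSFM cells at 261 ± 5.25 (SD, n = 3). It had a log2 fold change of -0.69 ± 0.04 (SE, adjusted p = 7.40e-07). The median absolute log2 fold change in this role was 0.16, the smallest of the roles with tested genes.

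**Figure D4:**
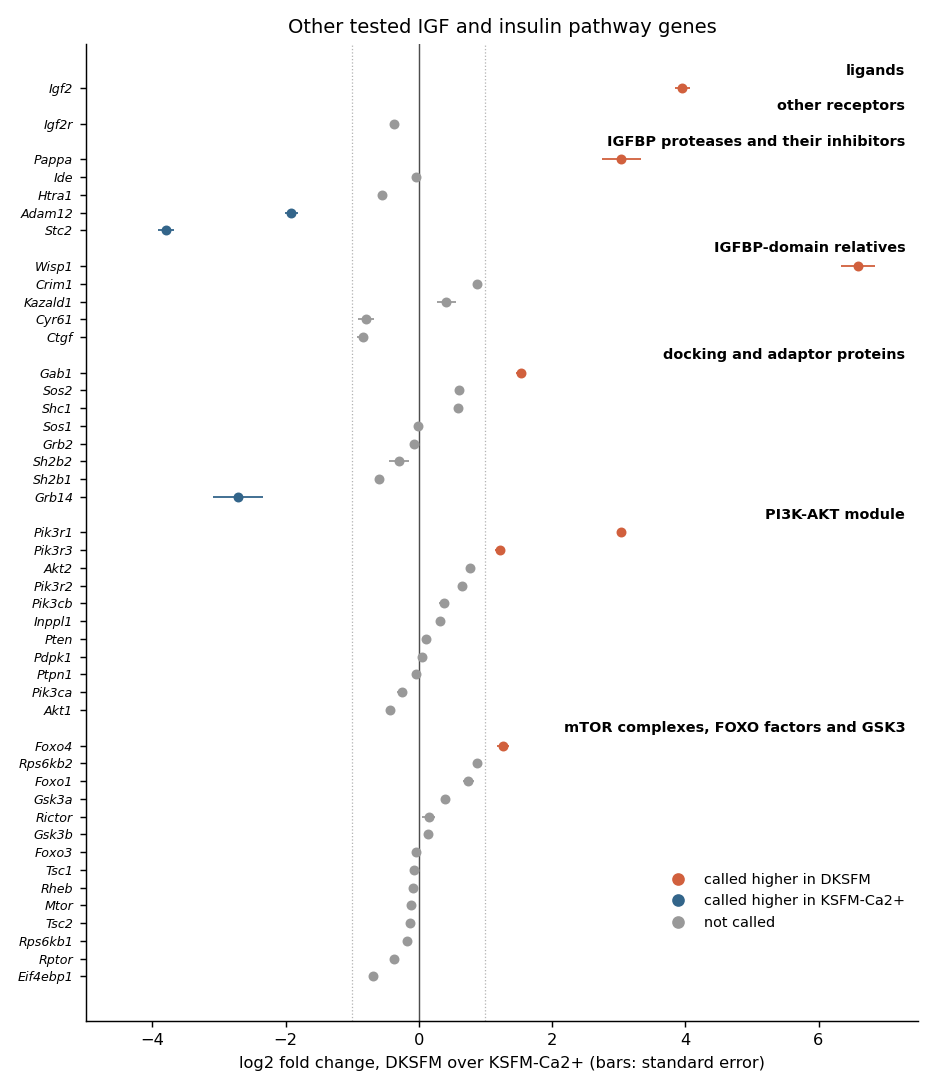
Log2 fold change (DKSFM over KSFM-Ca2+) of 45 tested pathway genes by role; points are limma estimates from 3 libraries a line, bars are standard errors, and dotted lines mark 2-fold. Of the genes drawn, 7 are called higher in DKSFM and 3 higher in KSFM-Ca2+, led by *Wisp1*, *Igf2*, *Pappa* and *Pik3r1* in the former and *Stc2* in the latter.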

How the data were processed

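RNA-seq signal was taken from 6 deposited files, 1 per library. The authors deposited the mean read coverage per base of each gene, to 1 decimal and not scaled to library size. Libraries were directional, and alignment was done by the authors in STAR against mm10, set for stranded libraries of the first-strand kind, with quantification in Salmon. How the coverage per gene was computed from the alignments is not given in the sources used here. Groups came from the sample titles.

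Libraries were scaled with unweighted TMM factors (0.991 to 1.01), which trim a share of 0.3 from the log ratios and of 0.05 from the mean levels. Genes that reached a normalised coverage of 0.5 in 3 or more libraries were kept, 12409 of 24982. Values were taken as log2(normalised coverage + 0.1), so that fold changes of low genes are understated, and fitted with limma (linear model, empirical Bayes with an intensity trend, no covariate). P-values were two-sided and adjusted by the Benjamini-Hochberg method over all tested genes. A gene was called at an adjusted p under 0.01 and a fold change of at least 2. Ratios of means were computed on normalised coverage without the pseudocount. Within lines, Pearson's r of log2 values across genes, which are not independent replicates, was 0.992 to 0.995. The steps were tested on simulated data. Models were run in limma 3.58.1 under R 4.3.3; tables used Python 3.11.15 and plots matplotlib 3.10.9.

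The members and lists were chosen with earlier results of these data known. Genes were named by a rule: every member, each called pathway gene and the most abundant uncalled gene of each role over all libraries, genes listed at 0, the 3 genes nearest to *Igfbp7*, tested neighbours of members, and other cell types' markers above 1. *Sh2b1* and *Rheb* were named after their values were seen. The values of 1 pathway gene that the counts include are not reported here. Positions and the windows before gene starts came from RefSeq (GRCm38.p6, the assembly of mm10), and transcript lengths, for the reads that a step is worth at the read length of 85 bases, from GENCODE. No counts were used, so that depth is given as total coverage and no counting interval is given. Alternatives were other scalings, filters and pseudocounts, no trend, a replicate block, each library left out, and the libraries named as combined only.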

Additional observations from a re-analysis of the deposited data

How the results depend on the processing

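No result changed direction under any alternative that was run. For the 7 tested members, 96 of 103 alternative values moved by less than the spread between replicates and 7 moved by more. The log2 fold change of *Igfbp7* was -10.13 with a pseudocount of 0.5 and -9.47 with 1, against -11.02, since a larger pseudocount shrinks low values. With a pseudocount of 1, that of *Irs1* was 0.39 instead of 0.60, that of *Igf1r* 0.93 instead of 0.99 and that of *Irs2* -1.54 instead of -1.65. Requiring the coverage minimum in every library left 1032 genes higher in DKSFM cells instead of 1636. This is because genes low in KSFM-Ca2+ cells are then not tested. *Igfbp7*, *Wisp1*, *Pappa* and *Grb14* are among the genes not tested in that setting. Of the pathway genes, 5 were called higher in DKSFM and 3 higher in KSFM-Ca2+ cells there, instead of 7 and 4. Calls of named pathway genes were kept in 248 of 251 cases; *Pappa* and *Grb14* lost theirs with a pseudocount of 1. With the libraries named as combined only, chosen after seeing the data, the log2 fold change was 9.42 for *Igfbp2* and 0.43 for *Irs1*, and *Ctgf* passed the fold limit at -1.05, while *Igfbp7* and *Grb14* did not pass the filter and have no value there. That setting holds 1 KSFM-Ca2+ library, which is assumed to vary like the others. Libraries with the same replicate number did not deviate together (r of -0.00508, 0.0239 and -0.0061 across genes, none over 0.1). They did not all correlate best with their own number. Whether libraries of the same number shared a culture cannot be told from these correlations. With a replicate block, 1641 genes were higher in DKSFM and 1304 in KSFM-Ca2+ cells. Coverage to 1 decimal limits what can be said of *Igfbp4*, *Igfbp5* and *Igfbp6*.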

Other observations

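*H19*, the imprinted non-coding RNA gene whose locus neighbours *Igf2*, was looked at after its values were seen. It lies at chr7:142575530-142578146 and its region ends 72.6 kb before that of *Igf2*. It was listed at 0.5, 0.4 and 0.2 in KSFM-Ca2+ and at 71.1, 98.4 and 83.1 in DKSFM libraries, with a log2 fold change of 7.66 ± 0.17 (SE) and a limma adjusted p of 5.48e-09. *Mir675*, whose precursor lies inside *H19* and whose reads cannot be told apart from those of its host here, was listed at 0 in KSFM-Ca2+ and at 30.9, 47.7 and 43 in DKSFM libraries. *Ascl2*, the next tested gene on the other side of *Igf2* and a transcription factor gene, was at 1.83 ± 0.399 in KSFM-Ca2+ and 0.689 ± 0.190 in DKSFM cells (SD, n = 3 each, limma adjusted p = 0.00102). The antisense gene *Igf2os*, which overlaps *Igf2*, was listed at 0.1 or less in KSFM-Ca2+ and at 0.6, 0.3 and 0.4 in DKSFM libraries. The libraries were directional and aligned with a strand setting, but it is not stated whether the coverage per gene was split by strand.

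The members had 17 different tested neighbours that were not members themselves, of which 5 (29.4%) were called higher in DKSFM cells, 4 (23.5%) were called higher in KSFM-Ca2+ cells and 8 were not called. Of all tested genes 13.2% and 10.5% were called, and whether the shares differ was not tested. Beside *Igfbp4*, the topoisomerase gene *Top2a* of dividing cells, 15.8 kb away, was at 221 ± 2.20 in KSFM-Ca2+ and 78.8 ± 1.67 in DKSFM cells (SD, n = 3 each, limma adjusted p = 3.26e-09), whereas *Tns4* on the other side was not called (log2 fold change -0.49). Of the neighbours of *Irs2*, *Col4a1*, a basement membrane collagen gene, was at 85.5 ± 3.07 and 266 ± 14.3 (limma adjusted p = 1.99e-08) and *3930402G23Rik* at 5.46 ± 0.442 and 0.139 ± 0.063 (SD, n = 3 each, limma adjusted p = 2.86e-07), so that they differed in opposite directions. *Ttc23* and *Arrdc4*, on both sides of *Igf1r*, had log2 fold changes of 1.20 ± 0.08 and 1.03 ± 0.08 (SE, limma adjusted p of 2.42e-06 and 7.12e-06), beside 0.99 for *Igf1r* itself. Beside *Irs1*, *Rhbdd1* was higher in KSFM-Ca2+ cells, with a log2 fold change of -1.12 (limma adjusted p = 1.35e-07). *Dock10*, on the other side, was at 0.817 ± 0.195 (SD, n = 3) in KSFM-Ca2+ cells and listed at 0 in DKSFM libraries, so that the size of its log2 fold change, and with it the call, rests on the pseudocount of 0.1. *Tns3*, next to *Igfbp3*, was higher in DKSFM cells (1.38, limma adjusted p = 2.40e-07). Besides *Tns4*, *Polr2b*, *Rpl37a* and *Tns1*, those not called were *Ramp3* beside *Igfbp3*, *Spryd3* and *Csad* beside *Igfbp6*, and *Arhgef18* beside *Insr*, with log2 fold changes of 0.77, 0.10, 0.63 and -0.26.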
